A study of Caenorhabditis elegans with 2 samples.

Results

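The genes examined were part of the nuclear genes of Caenorhabditis elegans that encode subunits and assembly factors of the oxidative phosphorylation machinery. They were taken by name, as every nuclear protein-coding gene of the Ensembl annotation whose symbol begins with nuo-, nduf-, cox-, atp-, asb-, asg-, ucr-, sdha-, sdhb- or sdhd-. This gave 45 members out of 19973 nuclear protein-coding genes. The names cover the NADH dehydrogenase (complex I, 12 genes), succinate dehydrogenase (complex II, 4), the cytochrome bc1 complex (complex III, 5), cytochrome c oxidase (complex IV, 7 subunit genes and 8 assembly factor genes) and the ATP synthase (complex V, 9). The rule uses gene names alone and so misses subunits with other names. Some pathway genes with other names are given separately after the members.

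The measurements were chromatin immunoprecipitation sequencing peaks of EFL-1, a worm E2F transcription factor, in young adult hermaphrodites of the transgenic strain YL479. All animals carried an insertion that fuses GFP and FLAG to the C-terminus of EFL-1. The samples were 2 biological replicates of whole worms in 1 group, precipitated with an antibody against GFP according to the sample descriptions, although the antibody field names efl-1. In whole worms a peak cannot be assigned to a tissue, and no other genotype, untagged strain or input library was analysed here.

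Oxidative phosphorylation passes electrons from NADH and succinate through complexes I to IV to oxygen and uses the resulting proton gradient to make ATP at complex V. Most subunits are encoded in the nucleus and imported into mitochondria, while a few are encoded by the mitochondrial genome. The adult worm germ line is rich in mitochondria and passes them to the oocytes. E2F factors with their DP partners are best known for controlling cell cycle genes, and in worms EFL-1 acts in the DREAM complex.

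A gene was called bound when the summit of a peak from the authors' optimal list, thresholded on the irreproducible discovery rate (IDR), lay within 500 bp of an annotated start of one of its protein-coding transcripts. The list held 2179 nuclear peaks, which are called reproducible peaks here. Each peak carried a signal value made by the authors, on a scale that is not stated, so it only describes and orders peaks. The list equalled the 2179 strongest nuclear candidates of the pooled data. A bound gene is therefore one whose peak passed a rank threshold, and an unbound one may still have a weaker candidate. Library depth is unknown, because no read counts come with the peaks. Outside the members, efl-1 itself was bound with a pooled signal of 439.6, and unc-119 was not bound and had a candidate of 18.7. Without an input library or untagged strain, these values do not check the binding calls.

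EFL-1 was bound at 18 of the 45 listed oxidative phosphorylation genes, 40.0% of them, where 8.86% of all nuclear protein-coding genes were bound. A further 21 members had a weaker pooled candidate within 500 bp and 6 had none. The bound genes were nduf-11, nuo-1 and nuo-2 of complex I, sdha-1 of complex II, ucr-1 and ucr-2.2 of complex III, cox-4, cox-5A, cox-5B, cox-6B and cox-6C of complex IV, its assembly factors cox-10 and cox-14, and asb-2, asg-1, atp-1, atp-2 and atp-3 of the ATP synthase. Their 18 peaks were all different. Any pooled candidate, reproducible or not, lay near 39 of the 45 members (86.7%), against 38.0% of all genes. Among genes with a candidate, 18 of 39 members were bound (46.2%), against 23.3% of all such genes.

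At 500 bp the share of bound genes was highest among the structural subunits of cytochrome c oxidase, with 5 of 7 (71.4%), and then the ATP synthase, with 5 of 9 (55.6%). This order turned when a peak was given only to its nearest start, with 3 of 7 complex IV subunits (42.9%) and 4 of 9 ATP synthase genes (44.4%) bound, because cox-6B, cox-6C and asg-1 were lost to a neighbour. At 500 bp with every start counted, the share was 2 of 5 for complex III (40.0%). It was 25.0% for complex I (3 of 12), complex II (1 of 4) and the assembly factors of complex IV (2 of 8). With the nearest start only, the assembly factors fell to 1 of 8 (12.5%), and complexes I, II and III were unchanged. Each of these shares was above that of all genes, 8.86% at 500 bp and 6.84% with the nearest start only. They rest on few genes each and were not compared by a test. The bar chart of shares by complex shows all of them beside the genome-wide share.

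**Figure D1:**
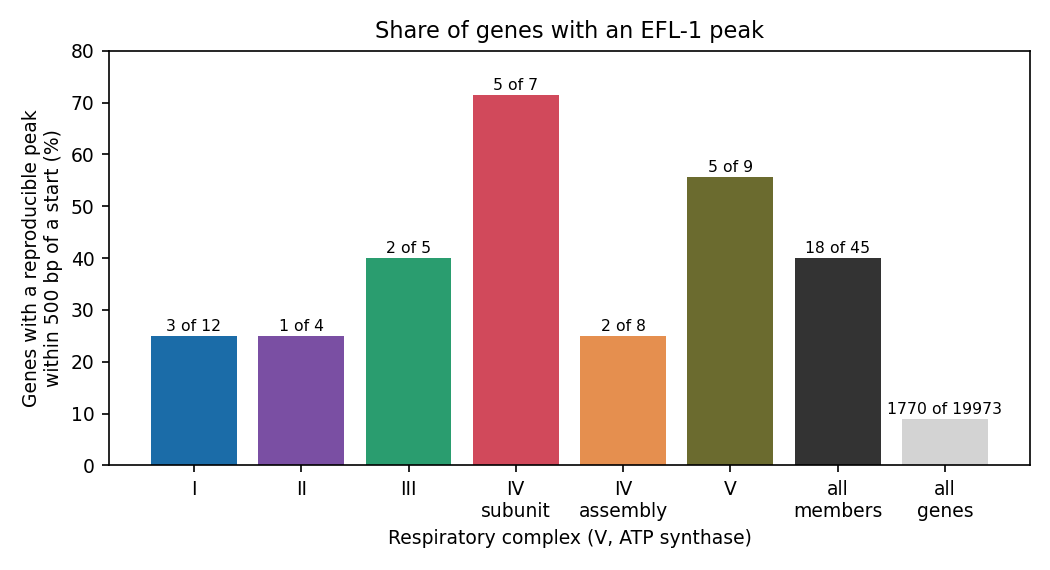
Bars give the percentage of genes with a reproducible EFL-1 peak summit within 500 bp of a start, for each respiratory complex, for all members and for all nuclear protein-coding genes, with the counts written above. The complex IV subunits stand highest at 71.4% and all genes lowest at 8.86%, though with peaks given only to the nearest start complex IV subunits (42.9%) were below the ATP synthase (44.4%).

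In strength the member peaks spanned the list. The median pooled signal of bound members was 79.9 (range 48.0 to 629, n = 18 genes), against 92.8 for all 1770 bound protein-coding genes (range 45.6 to 1895). Counted by peak, the median over all 2179 nuclear reproducible peaks was 80.2. Of the member peaks, 9 were in the stronger 50% of the reproducible peaks. By complex, the medians were 199 for the 5 bound complex IV subunits, 141 for the 2 assembly factors, 86.1 for the 5 ATP synthase genes, 73.6 for the 3 complex I genes and 54.2 for the 2 complex III genes, and the single complex II gene had 48.0. The plot of pooled signal by gene shows that the highest values of complexes II and III were close to the lowest reproducible peak, at 45.6.

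**Figure D2:**
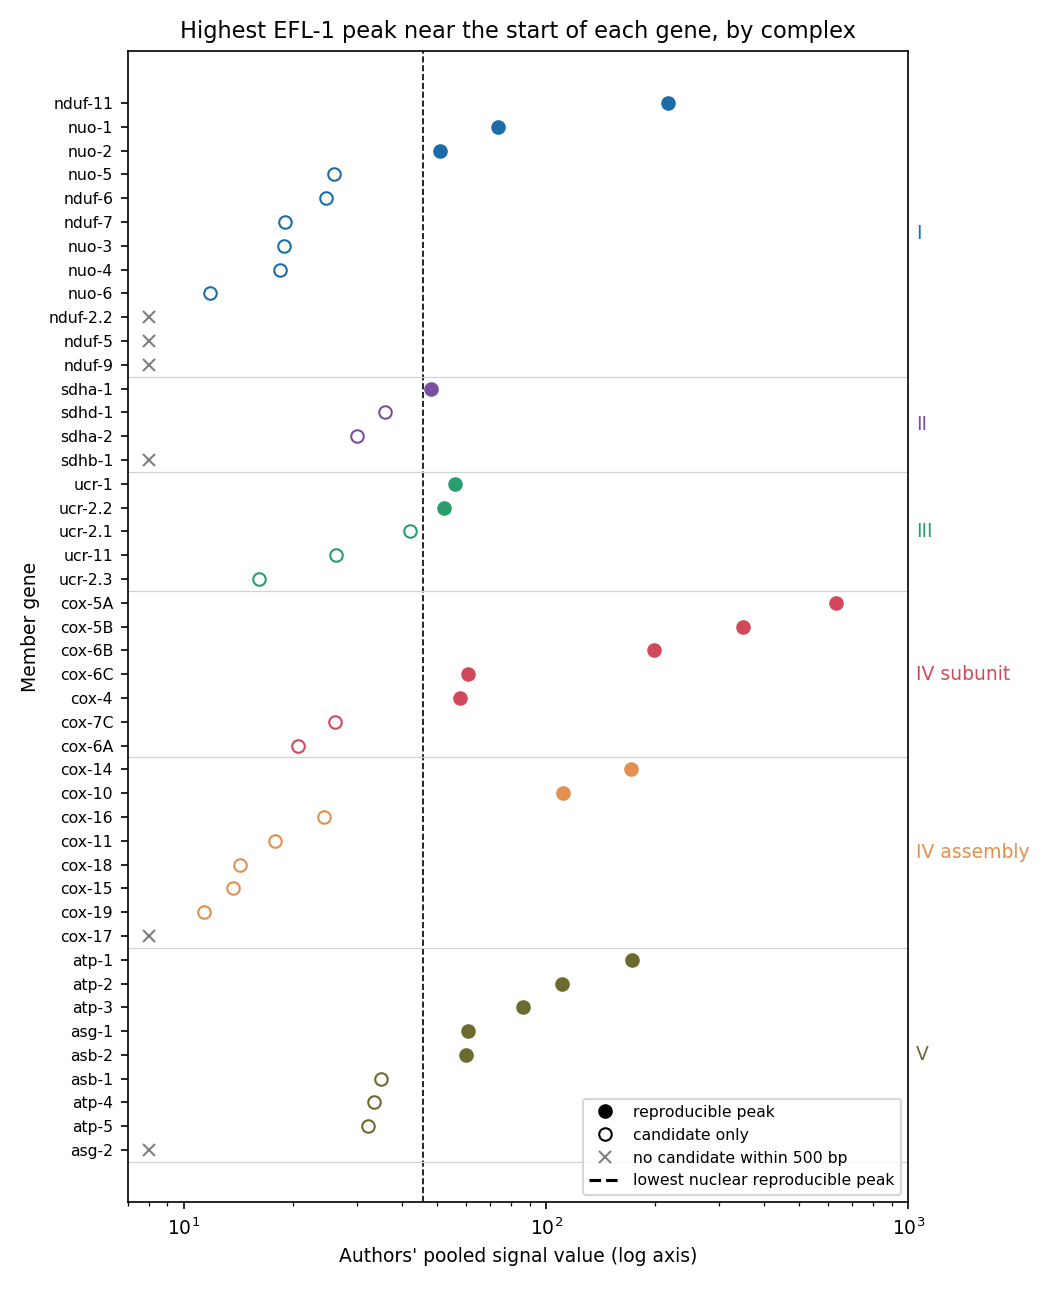
Each row is 1 of the 45 genes, grouped by complex, and the horizontal axis is the authors' pooled signal value on a log scale. Filled points are reproducible peaks, open points the highest candidate that is not reproducible, crosses (placed at the left edge, not at a value) genes with no candidate within 500 bp, and the dashed line the lowest nuclear reproducible peak at 45.6, with cox-5A highest at 629.

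The windows at 4 of the 6 strongest member peaks are printed here, to show what strong member peaks with and without an E2F-type string look like. They do not represent all 18. The windows of cox-5B, the second strongest and the strong peak with 8-base E2F strings, and of atp-1 are not shown, and the peaks of cox-6B and cox-14 are nearer to another gene. Each runs 50 bases either side of the summit on WBcel235 (the assembly also called ce11), 5′ to 3′ on the strand of the gene, and none overlaps an annotated untranslated region. Capitals mark a 7-base E2F-type string or the strings TTCGAA and TTTGAA, on either strand. The windows come from chrIII:12905149-12905249 for cox-5A (plus strand), chrII:11345754-11345854 for nduf-11 (minus strand), chrIII:2785996-2786096 for cox-6B (plus strand) and chrIII:10218717-10218817 for cox-14 (plus strand).
cox-5A: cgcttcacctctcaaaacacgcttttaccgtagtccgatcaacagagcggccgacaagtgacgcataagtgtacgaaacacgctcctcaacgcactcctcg
nduf-11: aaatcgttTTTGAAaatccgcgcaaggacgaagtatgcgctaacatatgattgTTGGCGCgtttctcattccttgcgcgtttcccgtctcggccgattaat
cox-6B: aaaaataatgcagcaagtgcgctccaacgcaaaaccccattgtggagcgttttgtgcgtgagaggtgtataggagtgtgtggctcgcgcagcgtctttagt
cox-14: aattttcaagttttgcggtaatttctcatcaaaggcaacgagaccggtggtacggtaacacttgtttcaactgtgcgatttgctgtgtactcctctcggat
In these windows only nduf-11 holds a marked string, with TTGGCGC near the middle and TTTGAA towards its 5′ end. The cox-5A window, at the strongest member peak, holds 11 CG steps and no E2F-type string, and the nduf-11, cox-6B and cox-14 windows hold 12, 7 and 6 CG steps.

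Cytochrome c oxidase takes electrons from cytochrome c and reduces oxygen. Its subunit gene cox-5A (WBGene00012553, chromosome III from 12905491 to 12906619, plus strand) had the strongest peak of all members, from 12905072 to 12905316. The summit was intergenic, at 292 bp before the start. Its signal was 629 (pool), 419 (replicate 1) and 210.1 (replicate 2), and it ranked 13, 11 and 19 among nuclear peaks of those lists. No other protein-coding gene started within 500 bp of this summit, and the next upstream protein-coding gene, unc-71, lay 13752 bp away.

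The gene cox-5B, which encodes a zinc-binding subunit, was second (WBGene00000371, chromosome I from 9788725 to 9790050, plus strand). Its peak from 9788540 to 9788792 was intergenic, 62 bp before the start, with 349 in the pool, 190.4 (replicate 1) and 156 (replicate 2). It was also the only gene start within 500 bp of its summit. Its ratio of replicate 1 to replicate 2 was lower than that of cox-5A, and both stood high in both replicates.

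The gene cox-6B had a pooled signal of 199, with 132 in replicate 1 and 71.1 in replicate 2. Its annotated model runs on chromosome III from 2699663 to 2786859 and has 2 starts. The summit lay 156 bp upstream of the second of them, at 2786202, within an intron of the long form. The start of the opposite-strand gene Y71H2AM.20 was closer to the summit, at 98 bp.

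The other bound complex IV subunits were weaker and farther from their starts. The gene cox-6C on chromosome IV had a pooled signal of 60.9, with 35.8 in replicate 1 and 27.0 in replicate 2, at 433 bp upstream, where the summit lay in an exon of the noncoding gene F29C4.9 and closer to the divergent gene grld-1 (367 bp). The gene cox-4 on chromosome I had 57.7, with 47.8 and 21.2 in the replicates, at 424 bp upstream, in an intron of the pseudogene W09C5.9. The unbound subunit genes were cox-7C, with a candidate of 26.2, and cox-6A, with 20.6, and neither candidate overlapped one in replicate 2.

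Of the 8 assembly factor genes of complex IV, cox-14 and cox-10 were bound. The cox-14 peak on chromosome III from 10218711 to 10218833 had a pooled signal of 171, with 133 in replicate 1 and 37.0 in replicate 2. Its summit was 175 bp upstream of cox-14 but 121 bp from the start of the divergent gene rde-4, which encodes a double-stranded RNA binding protein of RNA interference. The gene cox-10 encodes the farnesyltransferase that begins the synthesis of haem A. Its peak on chromosome II from 12679701 to 12679976 had 111 in the pool, 65.1 (replicate 1) and 43.9 (replicate 2), at 115 bp upstream, shared with Y38E10A.33.

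The other assembly factors were not bound. The haem A synthase gene cox-15 had a candidate of 13.7, and cox-11, which delivers copper, one of 17.9. The genes cox-16, cox-18 and cox-19 had candidates of 24.3, 14.3 and 11.4, and the copper chaperone gene cox-17 had none.

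In the ATP synthase, the genes for the alpha and beta subunits of the catalytic core were bound. The gene atp-1 encodes the alpha subunit (WBGene00010419, chromosome I from 12652277 to 12654655, plus strand). Its peak from 12652208 to 12652356 had 172 in the pool, 136 (replicate 1) and 39.5 (replicate 2). It was the only member whose summit lay downstream of the start, by 23 bp, in the untranslated part of its first exon, and the start of the divergent gene mcrs-1 was 213 bp from the summit.

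The gene atp-2 encodes the beta subunit (WBGene00000229, chromosome III from 5228417 to 5230536, plus strand). Its peak from 5228030 to 5228305 had 110.4 in the pool, 72.6 (replicate 1) and 37.4 (replicate 2), with the summit 249 bp upstream of atp-2. This intergenic summit also served the opposite-strand genes C34E10.10 and C34E10.12. The gene atp-3, which encodes the stalk subunit OSCP, had 86.1 in the pool, 46.9 (replicate 1) and 35.5 (replicate 2), with the summit 13 bp upstream of a start and 236 bp from that of F27C1.2. The gene atp-1 was thus higher than atp-2 and atp-3 in replicate 1 and in the pool, and the 3 genes lay close together in replicate 2.

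Subunits b and g of the ATP synthase each have a gene pair in the worm, with 1 member of each pair on X. For subunit b, asb-2 on X was bound (60.1 in the pool, 25.5 (replicate 1) and 23.1 (replicate 2), 278 bp upstream), while asb-1 on chromosome III, known as the germline form, was not bound and had a candidate of 35.0, with 21.2 and 18.8. The pair was closer in each replicate than in the pool, with asb-2 higher in both. At asb-1, however, no replicate 2 summit lay within 50 bp of the pooled one, whereas asb-2 had one. For subunit g the autosomal gene asg-1 was bound (60.9 in the pool, 43.7 (replicate 1) and 19.2 (replicate 2)), with its summit 282 bp from asg-1 but 42 bp from mrps-15, a gene for a mitochondrial ribosomal protein. Its X-linked partner asg-2 had no candidate. The remaining subunit genes atp-4 and atp-5 had candidates of 33.5 and 32.3, each seen in both replicates.

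Complex I, the NADH dehydrogenase, is the largest of the complexes and had 3 of its 12 listed genes bound. Complex I genes with other symbols are outside these 12, and not all of them were examined. The further pathway genes described below include gas-1, lpd-5, C16A3.5, ndub-7 and nduv-2, and none of these was bound. The gene nduf-11 (WBGene00007192, chromosome II from 11343721 to 11345620, minus strand) encodes an accessory membrane subunit. Its peak from 11345739 to 11345895 had 217 in the pool, 139 (replicate 1) and 82.4 (replicate 2), at 184 bp upstream in intergenic sequence, with ranks of 230, 237 and 219. It was the only member of complex I above 100 in the pool, and no other gene start lay within 500 bp of it.

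The genes of the catalytic arm of complex I that were bound had weaker peaks. The gene nuo-1 encodes the flavoprotein that takes electrons from NADH, and had 73.6 in the pool, 48.9 (replicate 1) and 20.4 (replicate 2). Its summit was 299 bp upstream of nuo-1 and 334 bp from the divergent ribosomal protein gene rpl-36.A, in an exon of the noncoding gene C09H10.13. The gene nuo-2, also of the catalytic arm, had 50.8 in the pool, 33.0 (replicate 1) and 26.0 (replicate 2). Its summit, 117 bp upstream, lay in an untranslated exon of T10E9.14, a gene on the same strand that ends 19 bp before nuo-2.

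The other 9 genes of complex I were not bound. The highest candidate was at nuo-5 with 26.0, which encodes the largest iron-sulphur subunit, followed by nduf-6 with 24.7, nduf-7 with 19, nuo-3 with 18.9, nuo-4 with 18.4 and nuo-6 with 11.8. The genes nduf-2.2, nduf-5 and nduf-9 had no candidate within 500 bp.

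Complex II links the citrate cycle to the respiratory chain. The X-linked flavoprotein gene sdha-1 was bound with the weakest member peak, at 48.0 in the pool, 24.9 (replicate 1) and 16.8 (replicate 2), with its summit 186 bp upstream and 3 bp from the small nucleolar RNA gene D2021.6. Its autosomal paralog sdha-2 had a candidate of 30.0. The membrane anchor gene sdhd-1 had 35.8 in the pool, 21.1 (replicate 1) and 17.5 (replicate 2), below the threshold, and the iron-sulphur gene sdhb-1 had no candidate. In replicate 2 sdhd-1 was above sdha-1, and in replicate 1 and the pool below it. The replicate 2 candidate at sdhd-1 matched poorly, however. It overlapped less than 50% of the pooled peak, and no replicate 2 summit lay within 50 bp of the pooled one. The sdha-1 peak met both conditions.

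Complex III passes electrons from ubiquinol to cytochrome c. Its core protein gene ucr-1 had 56.1 in the pool, 39.4 (replicate 1) and 12.5 (replicate 2), at 188 bp upstream and 229 bp from the divergent helicase gene ddx-15. Its rank was 1713 in the pool, 1529 (replicate 1) and 5271 (replicate 2), the lowest of any bound member in replicate 2. Of the 3 genes for the second core protein, the X-linked ucr-2.2 was bound with 52.2 in the pool, 26.9 (replicate 1) and 18.7 (replicate 2). The X-linked ucr-2.1 had 42.2, 37.3 and 11.0, the highest value of any unbound member in the pool. No replicate 2 summit lay within 50 bp of its pooled summit. The autosomal ucr-2.3 had a candidate of 16.1. The small subunit gene ucr-11 had 26.3.

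The threshold decided several of these calls. Just above the lowest nuclear reproducible peak of 45.6 stood sdha-1 at 48.0 and nuo-2 at 50.8, and just below it ucr-2.1 at 42.2, sdhd-1 at 35.8 and asb-1 at 35.0. The distance limit decided others. The farthest bound members were cox-6C at 433 bp and cox-4 at 424 bp. Reproducible peaks lay 667 bp upstream of nduf-9 (104 in the pool, also within 500 bp of Y53G8AL.4), 749 bp upstream of nduf-2.2 (201 in the pool, 120.2 (replicate 1) and 80.2 (replicate 2)), 809 bp upstream of cox-6A (49.4) and 886 bp upstream of nduf-7 (101). No protein-coding start lay within 500 bp of the peaks at nduf-2.2, cox-6A and nduf-7.

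All 18 bound members had a candidate overlapping their peak in both replicates, as did 2147 of the 2179 nuclear reproducible peaks (98.5%), a list that was derived from both replicates. For 13 of the 18 (72.2%) this candidate was among the 2179 strongest nuclear ones of both replicates, as for 69.4% of all nuclear reproducible peaks. It was among those of replicate 1 for 15 (83.3%), against 87.4% of all such peaks, and among those of replicate 2 for 14 (77.8%), against 79.5%. The member peaks thus stood near the other peaks in this respect. The median ratio of replicate 1 to replicate 2 signal was 1.77 for member peaks (highest 3.59, n = 18) and 1.70 for all reproducible peaks matched in both (n = 2147). The widest ratios among the strong member peaks were at atp-1 and cox-14, which are seen above the bulk of the other peaks in the plot of replicate signals. Of the 21 members with a candidate only, 11 had an overlapping candidate in both replicates and 10 in a single replicate.

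**Figure D3:**
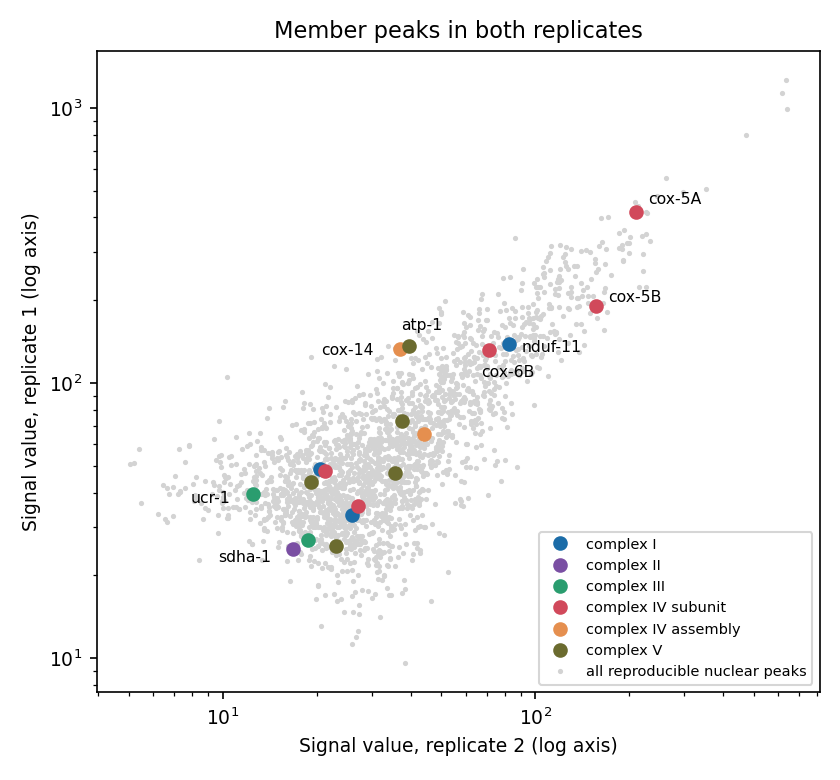
Each coloured point is the peak of a bound gene, with its signal value in replicate 2 on the horizontal and in replicate 1 on the vertical axis (both log scales), and grey points are all 2147 reproducible nuclear peaks matched in both replicates. The cox-5A peak stands highest among members in both replicates (419 and 210.1 in replicates 1 and 2), while ucr-1 is lowest in replicate 2 (12.5).

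The count of bound members was lower with either replicate alone. With the 2179 strongest nuclear candidates of replicate 1, 16 of 45 members were bound (35.6%), against 8.94% of all genes. With those of replicate 2, 14 were bound (31.1%), against 8.27%. Replicate 1 alone lacked asb-2, sdha-1 and ucr-2.2 and added ucr-2.1, and replicate 2 alone lacked asg-1, sdha-1, ucr-1 and ucr-2.2.

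Bound members lay on X as well as on the autosomes. Of 5 members on X, 3 were bound (60.0%; asb-2, sdha-1 and ucr-2.2), against 2.12% of all X-linked genes, and of 40 autosomal members 15 were bound (37.5%), against 9.93% of all autosomal genes. The X-linked count was not stable across the lists: it was 1 of 5 with replicate 1 alone (ucr-2.1), 1 of 5 with replicate 2 alone (asb-2) and 0 of 5 with the stronger 50% of the pooled peaks.

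The peaks of bound members lay upstream of the gene starts. The summit was upstream for 17 of 18 members (94.4%), and for 1226 of the 1386 reproducible peaks near any protein-coding start it was upstream of the nearest start (88.5%). The median distance was 187 bp (range 13 to 433 bp) for bound members and 190.0 bp for all 1770 bound genes. The plot of summit positions shows the members of each complex above the distribution of all near-start peaks. Of the 18 summits, 11 were intergenic, 2 in untranslated exons of protein-coding genes, 3 in exons of noncoding genes, and 1 each in an intron of cox-6B and of a pseudogene. Some noncoding gene or pseudogene lay within 100 bp of the summit at 7 of the 18 (38.9%), against 11.8% of the 1386 near-start peaks, and this difference was not tested. They were genes annotated as ncRNA at 5 members, a small nucleolar RNA gene at sdha-1, a pseudogene at cox-4 and a piRNA gene at atp-1. No tRNA gene was among them, against 4.04% of near-start peaks.

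**Figure D4:**
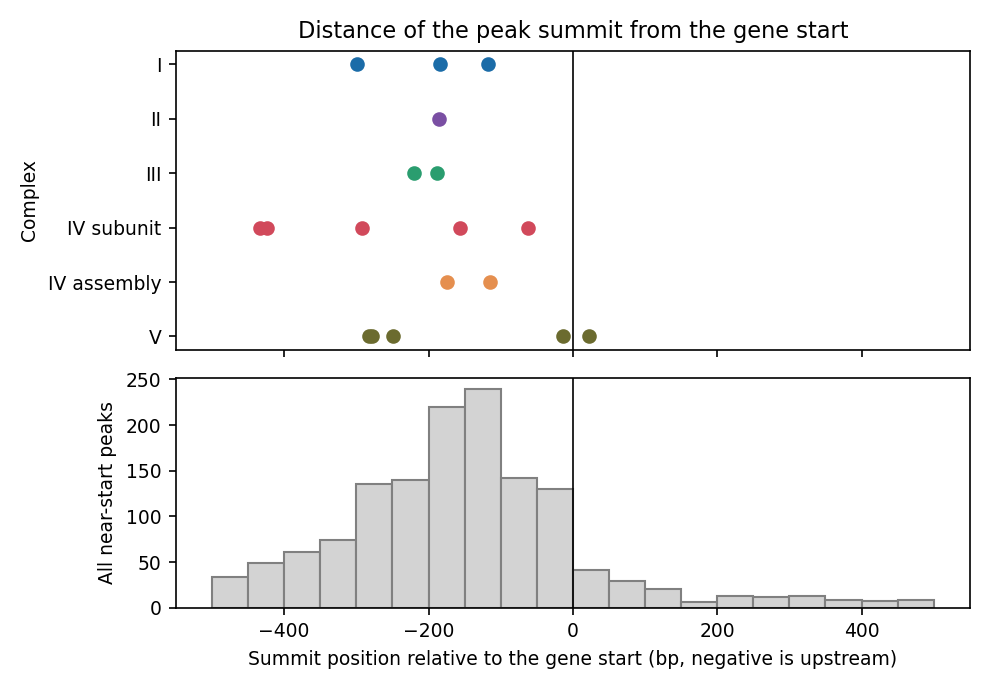
The upper panel gives the position of each bound member's peak summit relative to its own start, by complex, and the lower panel counts all 1386 reproducible peaks near a protein-coding start in bins by position relative to the nearest start (bp, negative is upstream). The summit of atp-1, 23 bp downstream, is the only one of the 18 to the right of the start.

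Many of the peaks were shared with neighbouring genes. For 10 of the 18 bound members (55.6%) the summit was also within 500 bp of the start of another protein-coding gene. Among all near-start peaks, 410 of 1386 (29.6%) served 2 or more genes. The member share counts genes and the other share counts peaks, so they cannot be compared directly. In a count of genes, a shared peak enters for each gene that it serves. The member had the nearest start at 14 of the 18, and the exceptions were cox-14, cox-6B, cox-6C and asg-1. A peak between 2 divergent starts cannot be assigned to either gene from these data.

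Gene arrangement was set beside binding for the same reason. The nearest upstream protein-coding gene was on the opposite strand and within 1000 bp for 21 members, of which 10 were bound (47.6%), against 24.3% of all genes so placed. It was on the same strand and within 500 bp for 15 members, an arrangement found in operons, where the annotated start of the downstream gene need not be a promoter. Of these 15, nduf-11, nuo-2, sdha-1 and ucr-2.2 were bound (26.7%), against 7.92% of all genes so placed. Of the 9 members in neither arrangement 4 were bound (44.4%), against 4.93%. The outermost start was used here, which for cox-6B is not the start next to its peak.

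E2F-type strings were present at few of the member peaks. The 8-base strings TTTCCCGC, TTTCGCGC, TTTGCCGC and TTTGGCGC were searched on both strands within 100 bp of the summit, and 2 of 18 member peaks held one (11.1%), those of cox-5B and sdha-1, against 19% of near-start reproducible peaks. The 7-base forms without the first T, which every 8-base match also holds, stood in 4 of 18 (22.2%), with nduf-11 and nuo-2 added, against 34.7%. The strongest peak, at cox-5A, held neither form.

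The strings TTCGAA and TTTGAA, of the cell cycle gene homology region bound by the DREAM subunit LIN-54, were also searched on both strands. They stood within 100 bp of the summit at 5 of 18 member peaks (27.8%), those of nduf-11, cox-4, cox-5A, cox-5B and asg-1, against 61.8% of near-start reproducible peaks. Within 50 bp the shares were 11.1% and 39.5%, and within 250 bp they were 83.3% and 88.0%. The GC content of the windows had a median of 40.8% at member peaks and 38.8% at all near-start peaks. These differences in shares were not tested, and 1 peak makes 5.56% of the 18. A match does not show binding to these letters, and its absence says only that they are not in the window.

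Other genes of the pathway carry names outside the list, and 58 of them were examined. EFL-1 was bound at 11, or 5 of 17 further subunits and electron carriers, 1 of 5 assembly factors, 1 of 5 carriers, 4 of 18 genes of the citrate cycle and pyruvate dehydrogenase, 0 of 8 genes of ubiquinone synthesis and 0 of 5 genes for mitochondrial genome upkeep and the stress factor atfs-1. Beside the 8.86% bound among all nuclear protein-coding genes, counts of 0 or 1 in groups of 5 or 8 genes are near the background and show nothing particular to these groups. In the last 2 of these groups, 5 genes of ubiquinone synthesis and 3 of genome upkeep and stress had a weaker candidate.

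Among the further subunits, the complex II anchor gene mev-1 had 83.3 in the pool, 53.9 (replicate 1) and 31.4 (replicate 2), shared with jmjd-4. The cytochrome c1 gene cyc-1 had 64.3 and the cytochrome c gene cyc-2.1 had 61.2. The ATP synthase subunit genes R53.4 and Y82E9BR.3 had 96.2 and 91.5, and the R53.4 summit, 471 bp upstream, was shared with psf-1, a GINS replication factor gene. The Rieske iron-sulphur gene isp-1 and the complex I gene gas-1 were not bound, with candidates of 27.6 and 14.9.

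Of the remaining classes, the strongest peaks were at dld-1, ant-1.1 and mdh-2. The gene dld-1, for the dihydrolipoyl dehydrogenase shared by several dehydrogenase complexes, had 331 in the pool, 203 (replicate 1) and 137 (replicate 2). Its peak was shared with nspg-9. The gene ant-1.1, 1 of 4 listed genes for the ADP/ATP carrier, had 264, 161 and 101, and ant-1.2, ant-1.3 and ant-1.4 had no candidate. The malate dehydrogenase gene mdh-2 had 208 in the pool, sco-1, a copper factor of complex IV assembly, 99.3, the aconitase gene aco-2 90.0 and the fumarase gene fum-1 54.7. The mdh-2 peak was shared with F20H11.4 and the aco-2 peak with eef-1B.1. The peaks of dld-1 and ant-1.1 were thus above every member peak but those of cox-5A and cox-5B in the pool.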

How the data were processed

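Peak lists from 2 biological replicates in 1 group were used. Per the descriptions deposited with the files, each replicate and the pool had a list of 30000 candidate peaks with background on ce11, meant as input for IDR, and the optimal list was derived from these 3. For the aligner, peak caller, versions and IDR threshold, nothing is given in the sources used here. Peak signal values were used as deposited by the authors. The deposited −log10 q-value was 3.70 in all 2207 peaks of the optimal list and was not used. Lists on ce10 were not used.

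Positions were compared with WBcel235 (the same assembly as ce11; no peak ran past a chromosome end) and Ensembl release 115. Coordinates count from base 1. Replicate values are the strongest candidate overlapping the pooled peak by at least 1 bp. Mitochondrial peaks entered no count of genes. Every bound member and every bound gene of the second list is named, as are the unbound members with their highest candidate. Members and lists were chosen with earlier results of these data known. With 1 group no difference between conditions exists, and no test was run. Shares describe genes, which are not replicates, and neighbouring genes share peaks. Counting of genes near peaks and string searches were checked on planted data. Alternatives were other distances, the stronger 50% of peaks, each replicate alone, nearest start only, all transcripts, other overlaps and other windows. Those for single complexes, for summit position and for TTCGAA and TTTGAA were added after seeing the data. Computation used Python 3.11.15, numpy 2.4.6, pandas 2.3.3 and matplotlib 3.10.9.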

Additional observations from a re-analysis of the deposited data

How the results depend on the processing

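Of 76 recomputed values, 50 stayed within 1.5 times the reported one. With a distance of 200 bp, 10 members and 5 other pathway genes were bound, against 4.73% of all genes. Complex III then had 1 bound gene, and complex IV subunits and complex V had 2 each. The summit was upstream for 9 of the 10, and the median signal was 141. With 1000 bp, 22 members and 6 genes of complex I were bound, against 11.3% of all genes. With the stronger 50% of the peaks, 9 members were bound, against 5.31% of all genes, 8 of them with the summit upstream. That left 1 gene for complex I, 0 for complexes II and III, and 3 each for complex IV subunits and complex V. With the nearest start only, 14 members were bound, against 6.84% of all genes, among them 3 subunit and 1 assembly genes of complex IV and 4 of complex V. With a replicate left out, 14 to 16 members, 0 genes of complex II and 0 to 2 of complex III were bound. A window of 50 bp left 1 peak with an 8-base E2F string and 2 with TTCGAA or TTTGAA, 250 bp gave 15 with TTCGAA or TTTGAA, and the 7-base E2F form was in 4. Fewer peaks or shorter distances give fewer bound genes by construction. All 18 bound members still matched in both replicates when at least 50% of the pooled peak had to overlap, and when replicate summits had to lie within 50 bp.

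Depth is unknown, the signal scale is not stated, and small groups limit every share by complex. No paired analysis was possible because there was 1 group.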

Other observations

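The subunits of oxidative phosphorylation that are not encoded in the nucleus are encoded by the mitochondrial genome, and the optimal list also held peaks there. It had 28 peaks on the mitochondrial genome, with a median pooled signal of 375 and a range of 77.5 to 4115. Of the 20 strongest peaks of the whole list, 7 were mitochondrial. The mitochondrial peaks were not compared with the nuclear members. Without an input library or untagged strain, their values do not show that EFL-1 binds there. The number of copies of the mitochondrial genome was not accounted for here.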
